A study of Gallus gallus with 9 samples.

Results

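FABP7, FABP4, FABP5 and CRABP1, small cytoplasmic proteins that bind fatty acids or retinoids, were followed in DF-1 cells, an immortalised line of chicken embryo fibroblasts. The genes were chosen by symbol from a list of 6 (FABP7, FABP3, FABP4, FABP5, CRABP1 and RBP4), of which 4 were matched among the 15294 genes of the expression table. FABP3 and RBP4 had no matching symbol and are not analysed as members. RBP4A, which RefSeq lists with RBP4 as an older symbol, is described below among the relatives. The list was selected on a readout, the low FABP7 level in suspension compared with attached cells, so the FABP7 values are a description and carry no test.

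Polyadenylated RNA was sequenced from 9 libraries of DF-1 cells, all labelled WT, with 3 libraries in each of 3 groups. The group 2D holds cells grown attached, and both 3D_E and 3D_L hold cells brought into carrier-free suspension. What the letters E and L stand for is not written out, and no time or medium is given for any group. DF-1 is 1 cell line, and separate cultures are not stated for the replicates, so p-values measure only the spread between libraries, which may be technical.

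Fatty acid binding proteins carry long-chain fatty acids through the cytoplasm to membranes, to enzymes that activate and oxidise them, and to nuclear receptors of the PPAR family. FABP7 is best known from radial glia and astrocytes of the brain, FABP4 from adipocytes and macrophages, and FABP5 from skin. The cellular retinoic acid binding proteins CRABP1 and CRABP2 hold retinoic acid, the cellular retinol binding proteins hold retinol and retinal, and retinol travels in blood on RBP4 bound to transthyretin.

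The authors deposited FPKM, a fragment count scaled to transcript length and to the mapped fragments of a library, which divides by length and therefore allows levels of different genes to be set side by side. Between 9826 and 10395 genes reached 1 FPKM in a library, and the summed FPKM ran from 641334 to 738281. Read depth is unknown, so no counting interval is given. Replicates were closest in 2D, with a root mean square SD over the tested genes of 0.12 on the log2 scale, against 0.29 in 3D_E and 0.16 in 3D_L. The libraries hold bulk RNA, in which fewer cells of a type and less RNA per cell cannot be told apart.

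FABP7 accounted for nearly all the FPKM of the fatty acid binding proteins found in attached cells and was present at a small part of that level in suspension. Its level in 2D was 1881, 1887 and 1803 FPKM in replicates 1 to 3. In 3D_E it was 136, 97.5 and 99.7 FPKM, and in 3D_L it was 537, 535 and 645 FPKM. All libraries of 2D were above all of 3D_L, and all of 3D_L were above all of 3D_E, so the groups do not overlap. The mean was 1857 ± 47.0 FPKM for 2D, 111 ± 21.9 for 3D_E and 572 ± 63.1 for 3D_L (SD, n = 3 each).

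**Figure D1:**
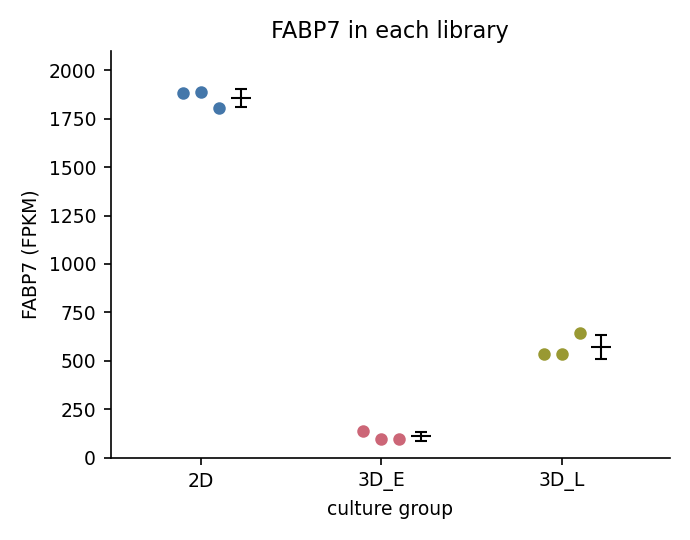
FABP7 level in FPKM on a linear axis from 0 in each library of 2D, 3D_E and 3D_L. Points are libraries in replicate order, and the bar beside them is the mean ± SD over 3 libraries. The 2D libraries sit between 1803 and 1887 FPKM, those of 3D_L between 535 and 645, and those of 3D_E between 97.5 and 136.

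The mean in 3D_E was 5.99% of the 2D mean, a 16.7-fold lower level, and the ratio ran from 13.2 to 19.4 over the most extreme pairs of libraries. The mean in 3D_L was 30.8% of the 2D mean, a 3.24-fold lower level, with a range of 2.79 to 3.53 over pairs. Between the suspension groups, FABP7 was 5.15-fold higher in 3D_L than in 3D_E, with a range of 3.92 to 6.62. On the log2(FPKM + 1) scale the differences were -4.07 for 3D_E minus 2D, -1.70 for 3D_L minus 2D and 2.37 for 3D_L minus 3D_E. With each library left out in turn they stayed within -4.22 to -3.98, within -1.79 to -1.66 and within 2.28 to 2.52.

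FABP7 ranked between 55 and 56 by FPKM among the 15294 genes of each 2D library. It ranked between 745 and 1013 in 3D_E and between 160 and 175 in 3D_L. Its part of all summed FPKM was 0.262% to 0.269% in 2D, 0.0135% to 0.0213% in 3D_E and 0.0822% to 0.0908% in 3D_L. Among the 10436 genes that reached 1 FPKM in at least 3 libraries, 1 gene had a larger decrease on the log2 scale than FABP7 from 2D to 3D_E, and 18 had one from 2D to 3D_L. Between 3D_E and 3D_L, 38 genes had a larger increase.

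FABP7 also set the total of the members and relatives found. Of 21 relatives looked up by symbol, 9 were found, among them the lipocalins PTGDS and APOD. With these 9 added to the 4 members, the summed level of the 13 genes was 1868 ± 47.6 FPKM for 2D, 141 ± 17.3 for 3D_E and 592 ± 65.2 for 3D_L (SD, n = 3 each). FABP7 made up 99.4% to 99.5% of that sum in 2D, 74.0% to 85.0% in 3D_E and 96.6% to 96.8% in 3D_L. Without FABP7 the sum was 10.4 to 12.3 FPKM in 2D, 24.1 to 35.1 in 3D_E and 17.8 to 21.9 in 3D_L. The 3 ranges of this smaller sum do not overlap and stand in the reverse order of FABP7. Among single tested genes, 14.3% have that order. The sum includes the relative PMP2, with means of 0, 8.83 and 3.35 FPKM in 2D, 3D_E and 3D_L. A link between this sum and FABP7 was not tested.

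The genes whose pattern was most like that of FABP7 were DPYSL3, LDB2, WDR4, AMACR and TMPO, named as the 5 with the highest Pearson correlation over the 9 libraries among 7354 genes with a mean of at least 10 FPKM in a group. Their r ran from 0.996 to 0.998, a description that rests on 3 group levels from the same libraries. AMACR, a racemase that prepares branched-chain fatty acids for oxidation, had 14.8, 17.5 and 14.4 FPKM in 2D, 1.61, 1.57 and 1.16 in 3D_E, and 6.28, 6.14 and 6.73 in 3D_L. LDB2, a LIM domain binding cofactor, had means of 13.0, 1.41 and 6.23 FPKM in 2D, 3D_E and 3D_L. DPYSL3, a cytoskeletal regulator of the CRMP family, had means of 362, 142 and 252 FPKM, TMPO, a lamina-associated protein, 95.3, 28.6 and 62.4, and WDR4, a subunit of a tRNA methyltransferase, 27.0, 12.4 and 19.1. The order 2D above 3D_L above 3D_E without overlap, which FABP7 has, was found in 14.3% of all tested genes, 1492 genes in all.

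**Figure D2:**
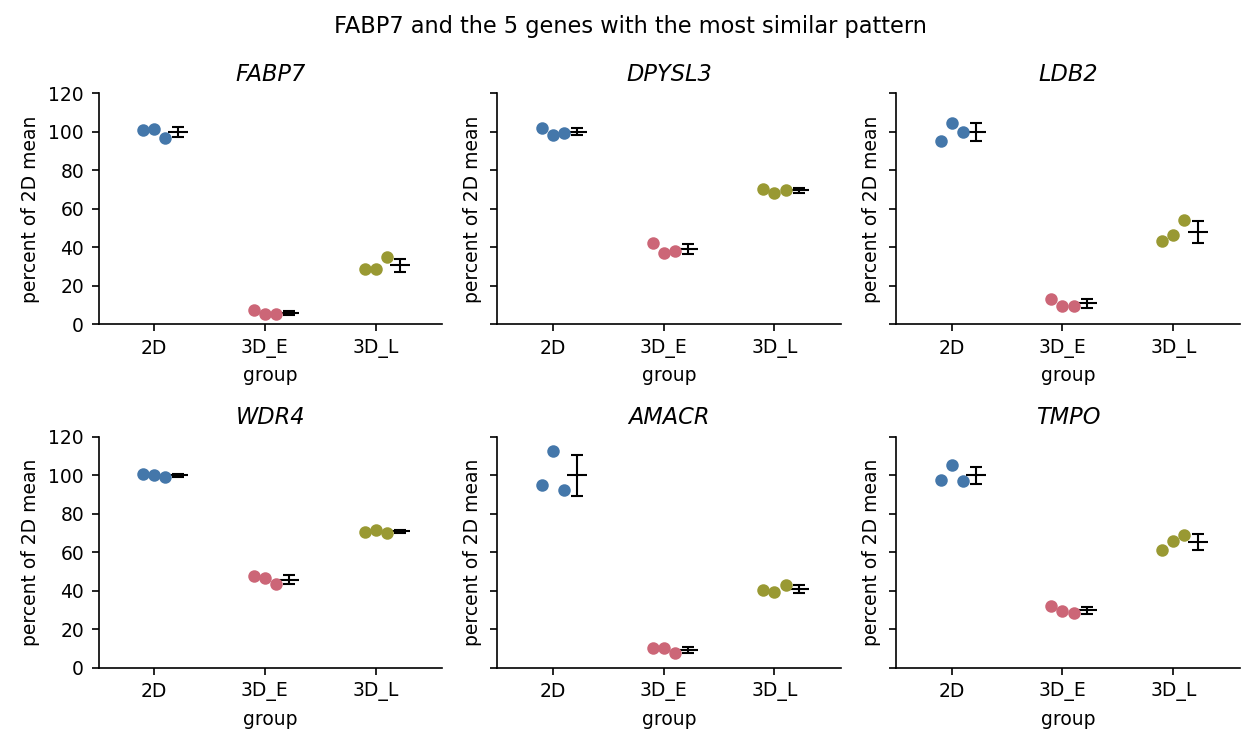
FABP7 and the 5 genes with the most similar pattern, each as percent of its own 2D mean, in every library of 2D, 3D_E and 3D_L. Points are libraries and bars are mean ± SD over 3 libraries. In all 6 panels 3D_E is lowest and 3D_L lies between 3D_E and 2D, with FABP7 at 5.99% in 3D_E and 30.8% in 3D_L.

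The genes that follow were tested with limma on log2(FPKM + 1) over all 9 libraries, with Benjamini-Hochberg adjustment over the 10436 tested genes of a comparison, and a gene rose or fell where the adjusted p was under 0.05. A large part of the transcriptome passes this test. Against 2D, 36.1% of tested genes were higher and 32.1% lower in 3D_E, and 20.3% were higher and 16.2% lower in 3D_L. In 3D_L against 3D_E, 27.2% were higher and 26.4% lower. The counts given below for each gene list are to be read against these shares. The comparisons against 2D share the 2D libraries, so each is given with its own values.

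FABP4, the adipocyte and macrophage fatty acid binding protein, was listed at 0 in all 2D libraries. It had 1.33, 1.10 and 0.75 FPKM in 3D_E and 0.31, 0.67 and 0 FPKM in 3D_L. All 3D_E libraries were above all others, while 1 library of 3D_L shared the 0 of 2D. The gene did not reach 1 FPKM in 3 libraries and is untested by the main rule. Without that filter, the log2 difference of 1.03 from 2D to 3D_E passed (limma, adjusted p = 0.00116), that of 0.38 from 2D to 3D_L did not (adjusted p = 0.153), and that of -0.66 from 3D_E to 3D_L passed (adjusted p = 0.0173). The size depends on the added constant, from 0.28 with 5 to 3.50 with 0.1 for 3D_E minus 2D.

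FABP5, the epidermal type, was listed at 0 in 8 libraries and at 0.08 FPKM in 3D_E replicate 3, and no difference passed without the filter (limma, adjusted p of at least 0.324). CRABP1 was listed at 0 in all 2D libraries, at 0, 0 and 0.14 FPKM in 3D_E and at 0.11, 0.12 and 0 FPKM in 3D_L. Its groups overlap at 0, and no difference passed without the filter (limma, adjusted p of at least 0.244). Thus, of the 4 members, FABP7 alone met the filter, and it did so in every group.

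PMP2, the myelin fatty acid binding protein, was above 0 in suspension libraries alone. It was listed at 0 in all 2D libraries, at 9.23, 9.28 and 7.99 FPKM in 3D_E and at 2.88, 2.85 and 4.31 FPKM in 3D_L. The 3 groups do not overlap and stand in the reverse order of FABP7, an order found in 14.3% of all tested genes. The log2 change was 3.29 from 2D to 3D_E (SE 0.13, limma adjusted p = 3.70e-08) and 2.10 from 2D to 3D_L (adjusted p = 2.42e-06). It fell by 1.19 from 3D_E to 3D_L (adjusted p = 6.88e-05). Since 2D is at 0, the sizes against it depend on the constant of 1 FPKM added before the logarithm. PMP2 met the filter through suspension libraries alone, so its calls against 2D lend no support to a rise. At its highest group mean, 8.83 ± 0.731 FPKM, PMP2 was still far below the 111 FPKM of FABP7 in the same 3D_E libraries.

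PMP2, FABP4 and FABP5 lie next to each other in the chicken genome by the RefSeq gene order of assembly GRCg7b, which gives PMP2 the symbol FABP9. The genes that flank the 3 on either side, MRPL53 of the mitochondrial ribosome and IMPA1, an inositol monophosphatase, had means of 26.0, 22.9 and 18.3 FPKM and of 42.4, 34.1 and 40.1 FPKM in 2D, 3D_E and 3D_L, and IMPA1 passed in no comparison (limma, adjusted p of at least 0.0591). MRPL53 fell by 0.50 in 3D_L against 2D (adjusted p = 0.0150) and did not pass in 3D_E (adjusted p = 0.263). Next to FABP7 in that order stand SMPDL3A and PKIB, both under 1 FPKM in each group mean. Beyond SMPDL3A lie LOC112532132, untested, with means of 0.95, 0.0933 and 0.463 FPKM, and CLVS2, a clavesin, with 1.76, 1.08 and 1.56. The CLVS2 groups stand in the order of FABP7 without overlap, and CLVS2 fell by 0.42 in 3D_E (limma, adjusted p = 0.00487), did not pass in 3D_L against 2D (adjusted p = 0.449) and rose by 0.31 between the suspension groups (adjusted p = 0.0284). On the side of PKIB, HSF2, a heat shock transcription factor, had means of 74.3, 52.1 and 58.4 FPKM and fell in 3D_E (limma, adjusted p = 0.00855) but did not pass in 3D_L (adjusted p = 0.0842). On the same side, SERINC1, a membrane protein of the serine incorporator family, had means of 111, 191 and 200 FPKM and rose in both (adjusted p = 0.00732 and 0.00753).

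FABP6, the bile acid binding relative of the intestine, had 6.57, 8.65 and 8.65 FPKM in 2D, 7.19, 8.94 and 11.7 in 3D_E and 6.42, 5.85 and 8.18 in 3D_L. The 3 groups overlap, and no difference passed (limma, adjusted p = 0.378 and 0.416 for 3D_E and 3D_L with 2D as reference, and 0.0938 between the suspension groups). Without 3D_E replicate 1, the last of these passed, with a log2 change of -0.53 (adjusted p = 0.0127).

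Among the retinoid binding relatives, RBP5, a cellular retinol binding protein, rose in both suspension groups. It had 2.82, 3.03 and 1.47 FPKM in 2D, 4.37, 8.14 and 8.72 in 3D_E and 7.75, 7.34 and 8.37 in 3D_L. All suspension libraries were above all 2D libraries, and the suspension groups overlap. The log2 change was 1.22 in 3D_E and 1.39 in 3D_L (SE 0.24, limma adjusted p = 0.00135 and 0.00165), and that between the suspension groups, 0.17, did not pass (adjusted p = 0.562).

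RBP4A, for which the RefSeq table gives RBP4 as an older symbol, had 0.12, 0.24 and 0 FPKM in 2D, 0.95, 1.33 and 1.92 in 3D_E and 0.36, 0.12 and 0.32 in 3D_L. All 3D_E libraries were above all others, at levels too low for the filter. CRABP2, the second retinoic acid carrier, stayed between 0.27 and 1.03 FPKM in all 9 libraries, with overlapping groups. RBP7 was above 0 in 3D_E replicate 3 alone, at 0.41. The lipocalins PTGDS and APOD, which also carry retinoids or lipids, reached at most 1.93 and 0.44 FPKM. Of the 9 relatives found, 3 were tested, 2 of these, PMP2 and RBP5, were called higher in each suspension group against 2D, and none fell. Over all tested genes, 36.1% were higher in 3D_E and 20.3% in 3D_L. Of the 2, PMP2 met the filter through suspension libraries alone.

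**Figure D3:**
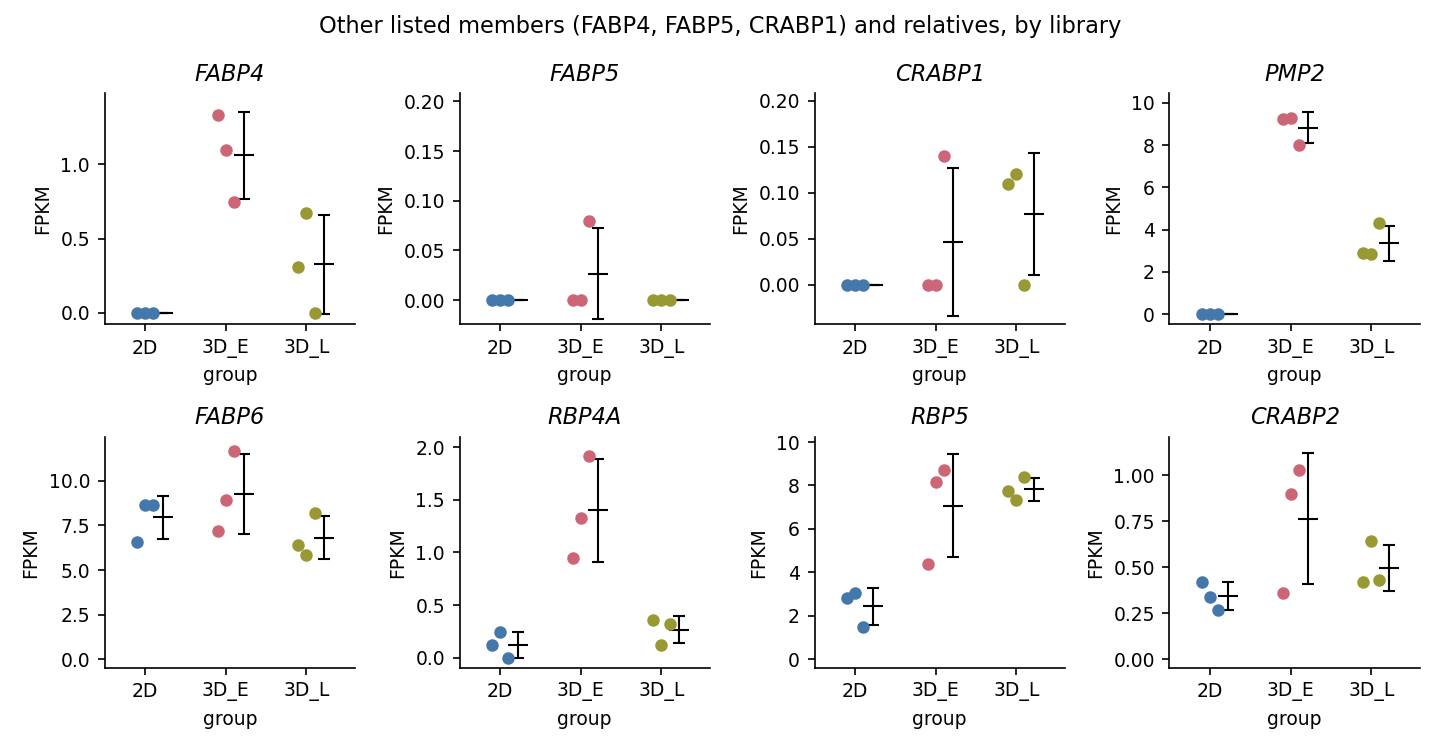
Level in FPKM, each panel on its own linear axis, of the members other than FABP7 and of 5 relatives in every library of 2D, 3D_E and 3D_L. Points are libraries and bars are mean ± SD over 3 libraries, and a bar may reach below 0. PMP2 is at 0 in 2D, at 7.99 to 9.28 in 3D_E and at 2.85 to 4.31 in 3D_L, RBP5 is higher in both suspension groups than in 2D, and FABP6 overlaps between all groups.

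Markers of other cell types were read beside these results. Of 12 fibroblast markers, all found, PDGFRA alone was under 1 FPKM everywhere, and their sum was 2640 to 3290 FPKM in 2D, 5383 to 6723 in 3D_E and 4768 to 4837 in 3D_L. Of the 11 tested, 5 rose and 2 fell in 3D_E, and 7 rose and 3 fell in 3D_L. VIM, vimentin, had means of 320, 2581 and 1899 FPKM in 2D, 3D_E and 3D_L and made up most of the higher sum. Collagen genes included calls in the other direction. COL1A1, with means of 840, 472 and 252 FPKM, and COL1A2, with 326, 214 and 121, fell in both suspension groups (limma, adjusted p up to 0.0130), and COL3A1, with 236, 259 and 165, fell in 3D_L (adjusted p = 0.00225). Of 7 radial glia and astrocyte markers found of 10, GFAP, SLC1A2, PAX6, SOX2 and S100B were under 1 FPKM in every library. The sum, mostly NES, was 54.0 to 65.2 FPKM in 2D, 71.0 to 80.0 in 3D_E and 71.1 to 97.7 in 3D_L. NES did not pass in 3D_E (limma, adjusted p = 0.0594) and rose in 3D_L (adjusted p = 0.0168). The part of these glial markers in the FABP7 level was not tested. Of 5 oligodendrocyte and Schwann cell markers found of 6, SOX10 was under 1 FPKM everywhere, and the sum, 0.16 to 0.35 FPKM in 2D, 9.31 to 13.6 in 3D_E and 5.43 to 6.11 in 3D_L, includes PMP2 itself. MBP, myelin basic protein, rose with it, from a mean of 0.19 FPKM in 2D to 2.87 in 3D_E and 2.33 in 3D_L (limma, adjusted p = 2.52e-04 and 0.00136). The part of these markers in the result for PMP2 was not tested.

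Of 6 adipocyte markers found of 7, ADIPOQ, PLIN1, CIDEC and LPL were under 1 FPKM everywhere, and the sum was 1.77 to 2.04 FPKM in 2D, 2.98 to 4.88 in 3D_E and 3.35 to 3.56 in 3D_L. Of 8 macrophage and blood markers, all found, PTPRC, SPI1, HBBA and HBA1 were under 1 FPKM everywhere. Their sum was 5.67 to 5.91 FPKM in 2D, 24.9 to 29.8 in 3D_E and 100.5 to 107 in 3D_L. LAPTM5, a lysosomal protein, had means of 0.69, 21.9 and 99.6 FPKM and makes up most of it. Calls went both ways, with 2 higher and 1 lower of 4 tested in 3D_E, and 1 higher and 2 lower in 3D_L. CD74, with means of 2.93, 1.63 and 1.37 FPKM, fell in both (limma, adjusted p = 0.00181 and 0.00117). MARCO fell in 3D_L (limma, adjusted p = 0.0381). Muscle markers summed to at most 0.14 FPKM and epithelial markers to at most 0.05. Endothelial markers summed to between 3.18 and 11.1 FPKM with KDR, TEK and VWF under 1, and liver markers to between 0.63 and 2.20 FPKM with ALB, APOA1 and FGB under 1.

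Other genes of the pathway make, remove and read retinoic acid, the ligand of the CRABP proteins. In the list of retinoid uptake, storage and synthesis, 13 of the 20 genes found were tested. In 3D_E 8 rose and 3 fell, with a median log2 change of 0.46, where that over all tested genes was 0.05. In 3D_L 4 rose and 2 fell (median 0.11, all genes 0.03).

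ALDH1A3, which oxidises retinal to retinoic acid, had 0.39, 0.25 and 0.29 FPKM in 2D, 45.0, 38.0 and 26.4 in 3D_E and 5.20, 5.20 and 4.51 in 3D_L. The groups do not overlap, in the reverse order of FABP7. Its log2 change was 4.81 in 3D_E (SE 0.17, limma adjusted p = 1.92e-08) and 2.19 in 3D_L (adjusted p = 8.98e-06), and between the suspension groups it fell by 2.62 (adjusted p = 1.97e-06). ALDH1A3 met the filter through suspension libraries alone, so its calls against 2D lend no support to a rise. Another enzyme of the same step, ALDH1A1, had means of 3.67 ± 0.522, 0.623 ± 0.116 and 2.18 ± 0.244 FPKM in 2D, 3D_E and 3D_L, in the order of FABP7. It fell by 1.52 in 3D_E (adjusted p = 1.80e-06) and by 0.55 in 3D_L (adjusted p = 0.00417).

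RDH12, a retinal reductase, had 56.2, 53.8 and 56.9 FPKM in 2D, 18.1, 13.7 and 10.2 in 3D_E and 44.9, 47.5 and 48.8 in 3D_L. It has the group order of FABP7 without overlap, although the step from 2D to 3D_L is small. It fell by 1.95 on the log2 scale in 3D_E (limma, adjusted p = 3.81e-06), did not pass in 3D_L (-0.24, adjusted p = 0.283) and rose by 1.71 from 3D_E to 3D_L (adjusted p = 2.41e-05). ADH1C, an alcohol dehydrogenase that can oxidise retinol, had means of 13.8 ± 0.358, 44.4 ± 5.86 and 37.3 ± 2.04 FPKM and rose in both suspension groups (1.61 and 1.37, adjusted p = 7.30e-07 and 8.63e-06). TTR, transthyretin, was listed at 0 in 2D and had 1.0, 1.59 and 0.50 FPKM in 3D_E and 1.36, 0.84 and 1.25 in 3D_L (adjusted p = 8.51e-04 and 0.00125). It met the filter through suspension libraries alone, so these calls lend no support to a rise. The log2 change of TTR from 2D to 3D_E ran from 0.27 with an added constant of 5 to 3.37 with 0.1.

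RDH12 and ALDH1A1 were the 2 genes of this list in the order of FABP7, and RDH10, DHRS3, ALDH1A3, BCO1 and SCARB1 were the 5 in the reverse order, of 13 tested. ALDH1A1 and the last-named genes other than ALDH1A3 were picked out after their values were seen. Each of the 2 orders was found in 14.3% of all tested genes, and BCO1 met the filter through its 3D_E libraries alone. From 3D_E to 3D_L, 3 genes of the list rose and 5 fell, and 3 fell without 3D_E replicate 2.

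In the list of retinoic acid breakdown, receptors and co-regulators, 9 of the 13 genes found were tested, 7 rose in 3D_E and none fell, with a median of 0.66. In 3D_L 3 rose and none fell (median 0.25), a split of 4 and 1 after quantile normalization. Between the suspension groups none rose from 3D_E to 3D_L and 5 fell, with 3 falling without 3D_E replicate 2 or without 3D_L replicate 3, and 1 rising without 3D_E replicate 3. CYP26B1, which breaks down retinoic acid, had 0.28, 0.25 and 0.23 FPKM in 2D, 16.1, 18.0 and 15.4 in 3D_E and 11.5, 10.8 and 11.1 in 3D_L. The groups do not overlap, in the reverse order of FABP7, with log2 changes of 3.80 and 3.27 from 2D (SE 0.09, limma adjusted p = 2.67e-09 and 1.06e-08). CYP26B1 met the filter through suspension libraries alone, so these calls lend no support to a rise.

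RXRA, the shared partner of the retinoic acid and PPAR receptors, had means of 3.67 ± 0.475, 7.48 ± 1.13 and 6.29 ± 0.689 FPKM and rose in both (0.86 and 0.64, limma adjusted p = 2.32e-04 and 0.00377). NCOA2, a coactivator of nuclear receptors, had means of 2.68, 10.2 and 4.20 FPKM and rose in both (1.60 and 0.50, adjusted p = 4.83e-07 and 0.00324). RARA, the retinoic acid receptor alpha, named after its values were seen, had means of 49.1 ± 4.98, 50.1 ± 2.08 and 58.6 ± 1.54 FPKM and did not pass against 2D (adjusted p = 0.777 and 0.0563).

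**Figure D4:**
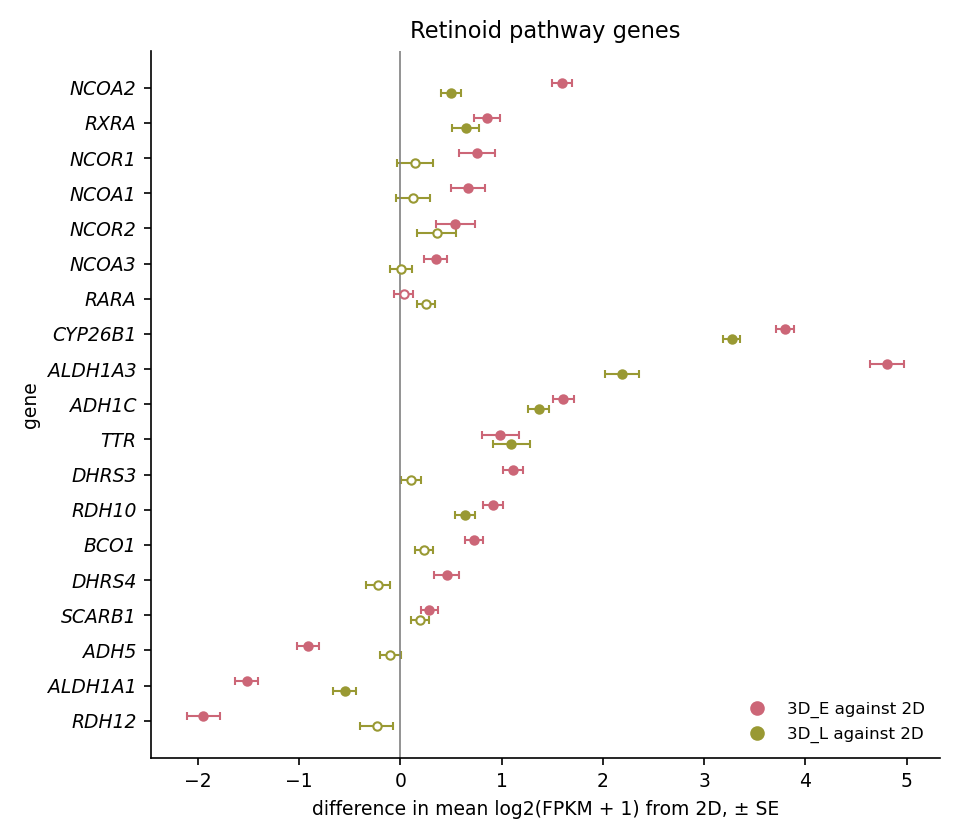
Difference in mean log2(FPKM + 1) from 2D, with its SE, for retinoid pathway genes in 3D_E and 3D_L (3 libraries each). The tested genes RDH5, RDH14 and NRIP1 are not drawn. RDH14 fell in 3D_L (-0.55, limma adjusted p = 0.00949) and did not pass in 3D_E, and RDH5 and NRIP1 passed in neither. Filled points have a limma adjusted p under 0.05 and open points do not. ALDH1A3 and CYP26B1 lie farthest to the right, at 4.81 and 3.80 in 3D_E, and RDH12 and ALDH1A1 farthest to the left, at -1.95 and -1.52. ALDH1A3, CYP26B1, TTR and BCO1 met the filter through suspension libraries alone.

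Of the textbook retinoic acid targets, 9 of 17 found were tested, and they did not move one way. In 3D_E 5 rose and 3 fell (median 0.84), a split of 6 and 2 after quantile normalization, and 1 fell without 2D replicate 1 or 3. In 3D_L 2 rose and 3 fell (median 0.11), a split of 3 and 1 on the TPM scale and of 1 and 3 after quantile normalization. Without 2D replicate 1 none fell in 3D_L, without 2D replicate 2 only 1 did, and 1 rose without 2D replicate 2 or 3 or 3D_L replicate 1 or 3. HIC1 misses the filter when a 2D library is left out, so part of the lower counts of falling genes is a gene no longer tested.

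CYP26B1 and DHRS3, a retinal reductase, belong to these targets too, and DHRS3 had means of 1.30, 3.98 and 1.47 FPKM and rose in 3D_E (1.11, limma adjusted p = 7.23e-06) but did not pass in 3D_L (0.11, adjusted p = 0.447). HOXA2, a homeobox gene of the hindbrain, had means of 0.353, 2.77 and 0.860 FPKM and rose in 3D_E (1.44, adjusted p = 1.26e-04) but did not pass in 3D_L (0.45, adjusted p = 0.104). It did pass in 3D_L without 3D_E replicate 1 or 3 (adjusted p = 0.0325 and 0.0184). HOXA2 met the filter through its 3D_E libraries and 3D_L replicate 1 alone. Its call in 3D_E thus lends no support to a rise. HIC1, a transcriptional repressor, had means of 1.20, 0.460 and 0.363 FPKM and fell in both (by 0.59 and by 0.69, adjusted p = 2.09e-04 and 2.57e-04). It met the filter through its 2D libraries alone, so these calls lend no support to a fall. EGR1, an immediate early gene, had means of 102, 73.8 and 65.5 FPKM and fell by 0.49 and by 0.63 (adjusted p = 0.0212 and 0.0137). The EGR1 libraries of 3D_E overlap those of 2D. The EGR1 call in 3D_E was lost without 2D replicate 1 or 3 or 3D_E replicate 2 or 3 (adjusted p up to 0.0853), and that in 3D_L without 2D replicate 1 (0.0506). Quantile normalization, the TPM scale and a fit of only the compared groups also lost the call in 3D_E (limma, adjusted p up to 0.115). The TPM scale lost that in 3D_L too (limma, adjusted p = 0.0508). In 3D_L against 3D_E 5 of the 9 targets fell and 1 rose, MEIS2, whose call held without 3D_E replicate 1 or 3D_L replicate 1 and was lost without any of the other 7 libraries.

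The PPAR receptors are nuclear receptors for fatty acids that FABP proteins deliver. The list holds receptors, coactivators and targets, and also the transcription factors CEBPA, CEBPB and CEBPD. Of 11 tested among 18 genes found, 7 rose and 1 fell in 3D_E (median 0.59). In 3D_L 8 rose and 1 fell (median 0.54). In 3D_E 2 fell without 2D replicate 2 or 3D_E replicate 1. CEBPD, a transcription factor of early adipocyte differentiation, had means of 2.72 ± 0.452, 33.7 ± 5.46 and 21.4 ± 5.64 FPKM, with log2 changes of 3.22 and 2.57 (limma, adjusted p = 2.80e-07 and 5.13e-06). CPT1A, which admits fatty acids to mitochondria, had means of 6.08 ± 1.32, 16.4 ± 2.38 and 18.0 ± 4.54 FPKM and rose by 1.30 and 1.41 (adjusted p = 3.00e-04 and 5.52e-04).

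ANGPTL4, a secreted inhibitor of lipoprotein lipase, had means of 38.1 ± 5.65, 31.7 ± 3.35 and 105 ± 1.31 FPKM. It did not pass in 3D_E (limma, adjusted p = 0.0904), although it fell there without 2D replicate 2 or 3D_E replicate 1 (adjusted p = 0.0203 and 0.0453), and rose by 1.46 in 3D_L (adjusted p = 1.50e-05). Among the receptors, named here after their values were seen, PPARG had means of 1.42, 2.84 and 2.54 FPKM and rose in both (adjusted p = 8.47e-04 and 0.00688), while PPARD had 26.7, 29.7 and 31.8 FPKM and passed in neither (adjusted p = 0.209 and 0.0871). From 3D_E to 3D_L 2 genes of the list rose and 1 fell, a split of 1 and 1 after quantile normalization and on the TPM scale. Without 2D replicate 2 or 3, 3D_E replicate 2, or 3D_L replicate 1 or 2, 1 rose, while 2 fell without 3D_E replicate 1 and none without 3D_L replicate 1 or 2.

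Of 18 genes of fatty acid uptake and activation tested among 25 found, 4 rose and 10 fell in 3D_E (median -0.33), and 6 fell without 2D replicate 2 or 3. Over all tested genes 36.1% rose and 32.1% fell there. ACSBG1, among those that fell, met the filter through its 2D libraries alone and is untested when a 2D library is left out. In 3D_L 7 rose and 5 fell (median 0.02), with 4 rising without 2D replicate 2 or 3D_L replicate 1 or 2, 3 falling without 2D replicate 1 or 3, and 5 and 5 called after quantile normalization. With 3D_E as reference, 6 rose and 5 fell in 3D_L.

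The acyl-CoA binding genes, which carry activated fatty acids, included members on both sides. ACBD7 had 13.6, 12.3 and 8.28 FPKM in 2D, 57.8, 71.0 and 69.3 in 3D_E and 26.6, 24.2 and 29.9 in 3D_L, without overlap and in the reverse order of FABP7. Its log2 changes were 2.45 and 1.19 (limma, adjusted p = 1.05e-06 and 4.79e-04). DBI, the main acyl-CoA binding protein, named after its values were seen, had means of 540 ± 51.3, 308 ± 38.4 and 413 ± 22.5 FPKM in the order of FABP7 and fell by 0.81 and by 0.38 (adjusted p = 1.85e-04 and 0.0287). It was thus at a lower level than FABP7 in 2D and at a higher one in 3D_E.

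SLC27A1, a fatty acid transporter, had means of 3.43 ± 0.383, 19.7 ± 2.79 and 10.4 ± 0.499 FPKM and rose in both groups (2.22 and 1.37, limma adjusted p = 1.74e-07 and 1.64e-05). ACSS2, which activates acetate, had means of 13.8, 30.7 and 18.0 FPKM and rose in 3D_E (1.09, adjusted p = 9.06e-06). Its call in 3D_L (0.36, adjusted p = 0.0206) was lost without any one of the 2D or 3D_L libraries (adjusted p up to 0.0764). SCP2, a sterol and lipid carrier of peroxisomes, had 312, 242 and 155 FPKM in 3D_E against means of 224 ± 10.8 in 2D and 78.2 ± 6.90 in 3D_L. It did not pass in 3D_E (adjusted p = 0.944) and fell by 1.51 in 3D_L (adjusted p = 4.20e-04).

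In fatty acid oxidation, 22 of 23 genes found were tested, 4 rose and 7 fell in 3D_E (median -0.18), and 5 rose and 6 fell in 3D_L (median -0.02). In 3D_L 3 fell without 2D replicate 2 or 3 or without any one of the 3D_L libraries, and 5 rose and 3 fell on the TPM scale. ETFDH, which passes electrons from acyl-CoA dehydrogenases to the respiratory chain, had means of 40.3 ± 4.50, 11.9 ± 1.08 and 24.9 ± 0.924 FPKM in the order of FABP7. It fell by 1.67 and by 0.67 (limma, adjusted p = 5.47e-07 and 8.71e-04). ECHS1, a hydratase of the mitochondrial cycle, had means of 32.6 ± 3.80, 70.5 ± 11.8 and 34.9 ± 4.93 FPKM and rose in 3D_E (1.08, adjusted p = 1.38e-04) but did not pass in 3D_L against 2D (0.09, adjusted p = 0.662). CPT2, which restores acyl-CoA inside mitochondria, had means of 37.4 ± 0.214, 32.9 ± 0.906 and 16.4 ± 0.971 FPKM, did not pass in 3D_E (adjusted p = 0.0677) and fell by 1.14 in 3D_L (adjusted p = 4.52e-06). From 3D_E to 3D_L 8 genes rose and 2 fell.

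Of 13 lipid droplet, storage and lipolysis genes tested among 17 found, 7 rose and 4 fell in 3D_E (median 0.59). In 3D_L 5 rose and 1 fell (median 0.19), and none fell on the TPM scale or without 2D replicate 2 or 3, 3D_E replicate 2, or 3D_L replicate 1 or 3. MGLL, the monoacylglycerol lipase, was listed at 0 in all 2D libraries and had 9.09, 8.38 and 5.53 FPKM in 3D_E and 2.65, 2.26 and 2.45 in 3D_L. The groups do not overlap, in the reverse order of FABP7, and both differences from 2D passed (limma, adjusted p = 1.10e-07 and 1.64e-05). MGLL met the filter through suspension libraries alone, so these calls lend no support to a rise.

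PNPLA2, the adipose triglyceride lipase, had means of 12.7 ± 1.34, 33.0 ± 12.1 and 19.4 ± 2.88 FPKM and rose in 3D_E (1.24, limma adjusted p = 0.00133). G0S2, its inhibitor, had means of 2.45 ± 0.904, 8.46 ± 2.43 and 6.97 ± 0.813 FPKM and rose in both (1.46 and 1.23, adjusted p = 1.89e-04 and 0.00157). PLIN2, a coat protein of lipid droplets, had 33.2, 37.8 and 35.8 FPKM in 2D, 77.9, 57.8 and 34.9 in 3D_E and 91.5, 96.6 and 74.9 in 3D_L. It rose in 3D_L (1.27, adjusted p = 0.00256). Its call in 3D_E (0.59, adjusted p = 0.0485) was kept only without 3D_E replicate 3 and was lost without each other library (adjusted p up to 0.123). From 3D_E to 3D_L 6 genes of the list rose and 5 fell, and 3 rose without 3D_L replicate 1 or 2.

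Genes of fatty acid synthesis and desaturation had the lowest share of higher calls in 3D_E among the lists drawn. Of 13 tested among 17 found, 1 rose and 6 fell in 3D_E (median -0.24), and 2 rose without 3D_E replicate 3. In 3D_L 4 rose and 3 fell (median 0.20), with 5 and 2 called after quantile normalization, and from 3D_E to 3D_L 9 rose and none fell (median 0.67). ELOVL5, an elongase of polyunsaturated fatty acids, had means of 108 ± 5.87, 36.2 ± 4.80 and 65.1 ± 4.45 FPKM in the order of FABP7 and fell by 1.56 and by 0.72 (limma, adjusted p = 1.24e-06 and 7.20e-04). ELOVL7, another elongase, had means of 3.08 ± 0.325, 0.540 ± 0.122 and 1.71 ± 0.202 FPKM in the same order and fell by 1.41 and by 0.59 (adjusted p = 2.14e-06 and 0.00211).

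ME1, the cytosolic malic enzyme that supplies reducing power for synthesis, was the 1 gene called higher in 3D_E, with means of 0.177, 3.16 and 2.85 FPKM (1.80 and 1.72, limma adjusted p = 5.92e-06 and 3.22e-05). It met the filter through suspension libraries alone, so these calls lend no support to a rise. FADS2, a desaturase, had means of 14.0 ± 0.216, 17.0 ± 3.18 and 30.8 ± 2.21 FPKM, did not pass in 3D_E (adjusted p = 0.0994, and 0.0234 without 3D_E replicate 3) and rose by 1.08 in 3D_L (adjusted p = 1.23e-04). FADS6, a relative of the desaturases, had means of 0.133, 0.217 and 1.81 FPKM with the same pattern of calls (0.10 and 1.30, adjusted p = 0.459 and 2.58e-05). It met the filter through its 3D_L libraries alone, so its call there lends no support to a rise.

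**Figure D5:**
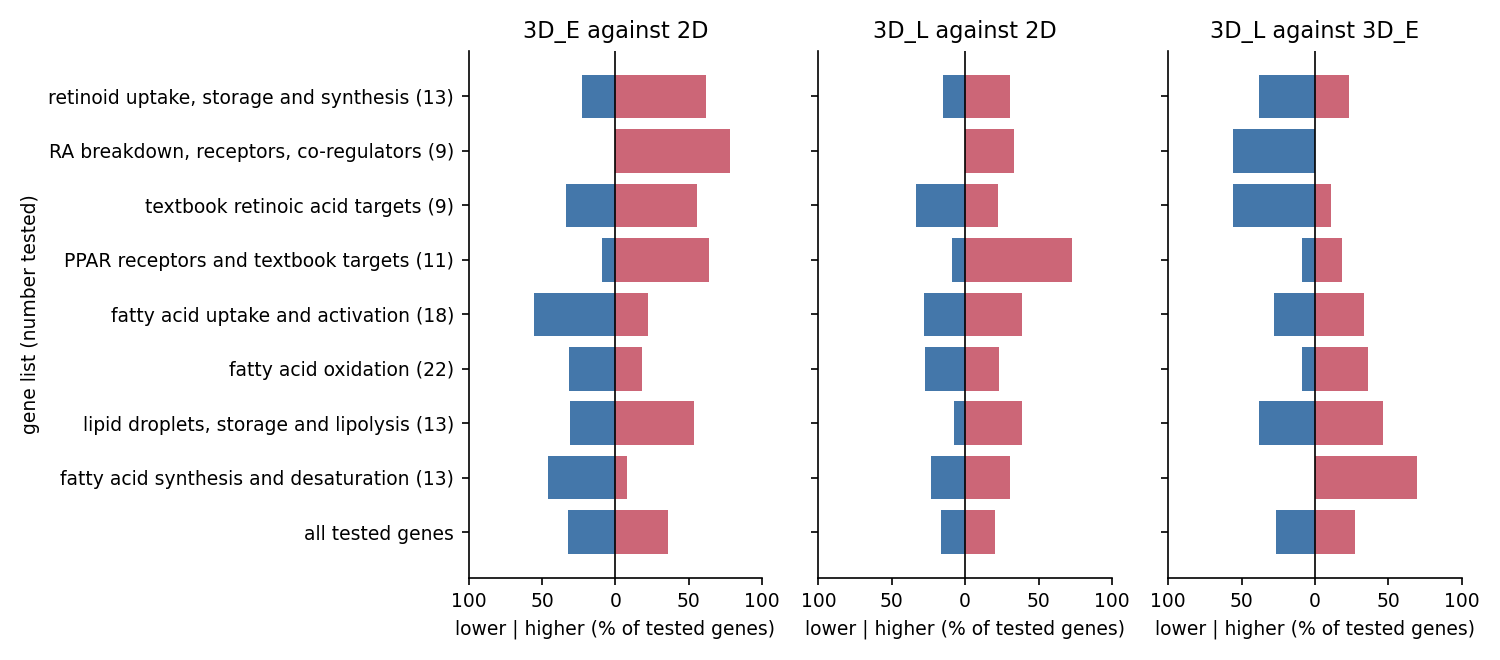
Percent of the tested genes of each list that were lower (blue, to the left) or higher (red, to the right) at a limma adjusted p under 0.05, in the 3 comparisons, with the number tested in brackets and all tested genes in the bottom row. In 3D_E against 2D the retinoic acid breakdown, receptor and co-regulator list has 7 higher and none lower of 9, and in 3D_L against 3D_E fatty acid synthesis has 9 higher and none lower of 13.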

How the data were processed

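RNA of 9 DF-1 libraries was extracted with trizol and selected for poly-A tails, per the labels' protocols. Expression was deposited as FPKM rounded to 2 decimals, per the file headers. The submitters' processing notes list HISAT2 2.0.5, DESeq2, R 3.4.2 and the build GRCg6a without saying what each did, and how FPKM was calculated is not given in the sources used here. Each value depends on all other genes of a library, and the low values gave no read steps, so depth is unknown. Among 94 columns, 82 without a name were left unused, and 1 line that names no gene was left out.

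Genes that reached 1 FPKM in 3 or more libraries, 10436 in all, were fitted together over the 9 libraries as log2(FPKM + 1), using limma 3.58.1 (lmFit, contrasts.fit, eBayes with trend, 6 residual degrees of freedom) in R 4.3.3. Tests were 2-sided with Benjamini-Hochberg adjustment per comparison, and a gene was called at an adjusted p under 0.05. The code was tested on simulated data. FABP7 was given no test. Groups came from the labels.

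The members and gene lists were chosen with earlier results of these data known. Up to 3 called genes with the largest log2 change against 2D were named per list and comparison, members and relatives found were named, and other genes are said to be named after their values were seen. Alternatives were another pseudocount (0.1 or 5), no filter or a filter at 5 FPKM, quantile normalization, a TPM scale, other variance settings, a replicate block and each library left out. The RefSeq table of GRCg7b matched 14265 gene numbers and all 13 members and relatives, and gave names and gene order only. No coordinates or sequences are printed, and a few genes that these rules name are not reported here.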

Additional observations from a re-analysis of the deposited data

How the results depend on the processing

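FABP7 kept the order 2D above 3D_L above 3D_E under every alternative run, with log2 differences of -4.08 to -4.02, -1.70 to -1.64 and 2.32 to 2.42 outside the settings that leave out a library. Without the filter on low values, 1 member other than FABP7, FABP4, was called in 3D_E against 2D and 1, again FABP4, in 3D_L against 3D_E, where the filter leaves 0 tested. Genes called in 3D_L against 2D numbered 3803 in the main fit. With only the compared groups fitted they were 5783, and with array weights per group 5839. The main fit takes 1 spread per gene from all 9 libraries. The root mean square SD was 0.12 in 2D, 0.29 in 3D_E and 0.16 in 3D_L. The cause of the different counts was not tested. Over all alternatives genes called ran from 5915 to 8109 in 3D_E against 2D, from 2581 to 5839 in 3D_L against 2D and from 4109 to 6912 in 3D_L against 3D_E. Of the recomputed changes of named genes, 1974 were unchanged, 51 lost the call, 22 gained it, 11 moved in size and 12 changed sign, none of these 12 called before or after. For tested genes, unchanged means the same direction and call. For the members, FABP7 included, it means a shift within the larger group SD, with no call used. After quantile normalization FADS6 from 2D to 3D_E was at -0.051 and DHRS3 from 2D to 3D_L at -0.13. With libraries left out, SCP2 from 2D to 3D_E ran from -0.21 to 0.29, with values below 0 without 3D_E replicate 1 or 2 or 2D replicate 3. In 3D_L against 3D_E, RBP5 ran from -0.097 to 0.33 and EGR1 from -0.26 to 0.086, with the changed sign without 3D_E replicate 1. TTR ran from -0.090 to 0.30 and ME1 from -0.25 to 0.082, with the changed sign without 3D_E replicate 3, and CPT1A from -0.0088 to 0.33, below 0 without 3D_E replicate 3 or 3D_L replicate 1 or 2. The cause was not tested. Fitting only the compared groups or weighting by group called RDH12 lower in 3D_L than in 2D (limma, adjusted p = 0.00937 and 0.0324). The same settings called HOXA2 (0.0115 and 0.00758) and PNPLA2 (0.00363 and 0.00449) higher there. HOXA2 was also called there with a pseudocount of 0.1 (0.0236) and on the TPM scale (0.0466), and CPT2 was called lower in 3D_E without the filter (0.0405). The median change of the lists in 3D_L against 2D changed sign in some settings for retinoid uptake (lowest -0.10), retinoic acid targets (-0.03), fatty acid uptake (-0.07) and oxidation (highest 0.05).

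Deviations of same-numbered libraries correlated between -0.404 and 0.182 over 9 pairs, and those of others between -0.365 and 0.400 over 18. These values show no pairing by replicate number, but with 3 libraries per group they cannot exclude one. With the replicate block, genes called were 6915, 3336 and 5281 in the 3 comparisons, and FABP6 was called lower in 3D_L than in 3D_E (limma, adjusted p = 0.0366). PMP2 and RBP5 kept their calls against 2D throughout, although PMP2 met the filter through suspension libraries alone. Unknown depth limits the members near 0 FPKM, where a difference may not be detectable.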
